A study of Mus musculus with 4 samples.

Results

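The genes described here encode subunits of the SWI/SNF, ISWI and INO80 chromatin remodelers, together with the related SNF2-type ATPases Atrx and Hells. They were taken from a list of 30 gene symbols, by membership in these complexes, and the rule itself sets no threshold on expression. Of these 30 genes, 29 had a row among the 23532 genes of the expression table, and 28 reached the mean level of 1 RPKM (read density scaled to transcript length and to library size) needed for testing. Smarca1 was listed at 0 in all 4 libraries and Srcap was not matched to a row, so neither was tested.

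The libraries came from Hepa1-6, an established mouse hepatoma line. All cells received a lentivirus and then stayed in medium with 4 μg/ml puromycin for 3 weeks. The Control group (n = 2) carried a scrambled shRNA and is labelled wild type, and the Chd1KD group (n = 2) carried an shRNA against Chd1. Both groups therefore share transduction and drug selection, and no untransduced cells were part of the comparison. Polyadenylated RNA was enriched from 10 μg of total RNA for each library. Whether replicate libraries stem from separate transductions is not stated in the labels. A p-value here therefore reflects library-to-library spread only, and that spread may be technical. Since RNA was taken in bulk, fewer cells expressing a gene and less RNA per cell cannot be told apart.

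Chromatin remodelers use ATP to slide, eject or exchange nucleosomes, and each family is built around an ATPase of the SNF2 superfamily. SWI/SNF (BAF and PBAF) complexes open chromatin at enhancers and promoters, and ISWI complexes space nucleosomes evenly. INO80-family complexes (INO80, SRCAP and p400/TIP60) are linked to the histone variant H2A.Z. Chd1, the gene targeted here, is an SNF2-superfamily remodeler of a separate family that binds the H3K4me3 mark and spaces nucleosomes over transcribed genes. The comparison asks whether mRNA of the other remodelers differs when Chd1 mRNA is lowered.

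The target was checked first. Chd1 was at 21.43 and 22.49 RPKM in the Control libraries and at 10.36 and 11.31 RPKM in the Chd1KD libraries. The groups did not overlap, and the ratio of means was 0.494. On the log2(RPKM + 1) scale, on which all fold changes here were computed and which understates those of low genes, the change was -0.96 (SE 0.07, limma adjusted p = 0.0125). With no filter on low genes the adjusted p was 0.25. Summed RPKM per library lay between 459381 and 484490 and between 10161 and 10209 genes reached 1 RPKM. Read depth is unknown, because RPKM holds no counts. Of the hepatocyte and hepatoma markers, 7 of 10 had a mean of at least 1 RPKM, among them Alb at 18.61 to 55.62 RPKM and Hnf4a at 35.48 to 50.91 RPKM. Apoa1 stayed at or below 0.3695 RPKM and Ttr was listed at 0. The summed level of the list was 1439 and 2308 RPKM with the scrambled shRNA and at 1021 and 1347 RPKM with the Chd1 shRNA. That sum was lower in both Chd1KD libraries than in either Control library. Single markers went both ways: of the 7 tested, 5 had fold changes below 0 and 2 above, and none had an adjusted limma p under 0.05. An unadjusted limma p under 0.05 was found for 6 of the 7, 5 lower and 1 higher, beside 18.5% of all tested genes. The median absolute fold change of the 7 was 0.347, beside 0.0923 over all tested genes. Afp, the fetal liver albumin-like protein, was at 29.91 and 39.67 RPKM in Control, against 55.21 and 58.26 RPKM in Chd1KD (fold change 0.70, limma adjusted p = 0.0773). The part of these markers in the member values was not tested. All 5 endothelial and all 5 lymphocyte markers, 4 of 5 macrophage markers and 5 of 6 fibroblast markers averaged below 1 RPKM. The exceptions were Cd14 at 7.0 to 8.627 RPKM and the fibroblast marker Dcn at 385.8 to 430.2 RPKM.

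No remodeler subunit passed the test. By limma with Benjamini-Hochberg adjustment over all 10209 tested genes, 0 of 28 members had an adjusted p under 0.05, where 0.460% of all tested genes did. At an unadjusted p under 0.05 there were 3 members, Smarcb1, Hells and Smarca2, which is 10.7% of the members against 18.5% of all tested genes. All 3 were lower in Chd1KD, where 11.3% of all tested genes were both lower and under that level. Groups did not overlap for 15 members, 53.6% of them against 51.8% of all tested genes. In 12 of the 15 the Chd1KD libraries were the lower ones, 42.9% of the members against 30.5% of all tested genes. The other 3, Smarcc1, Smarca5 and Atrx, had both Chd1KD libraries above both Control libraries.

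The sizes were small. Fold changes of the 28 members ran from -0.35 to 0.10 with a median of -0.06, beside a median of -0.02 over all tested genes. The median absolute fold change was 0.0858 for the members. The median absolute difference was 0.0904 between their 2 Control libraries and 0.0441 between their 2 Chd1KD libraries. Over all tested genes the same values were 0.0923, 0.0946 and 0.0683. A fold change is taken between means of 2 libraries and these differences between single libraries, so their sizes are not directly comparable. Signs leaned downward, with 20 of 28 members below 0 (71.4%, against 56.5% of all tested genes). That split depended on scaling: with each library set to the same summed RPKM, 16 of 28 members were lower (57.1%, against 47.7% of all tested genes), and after quantile normalization 18 of 28 were (64.3%, against 50.3%).

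**Figure D1:**
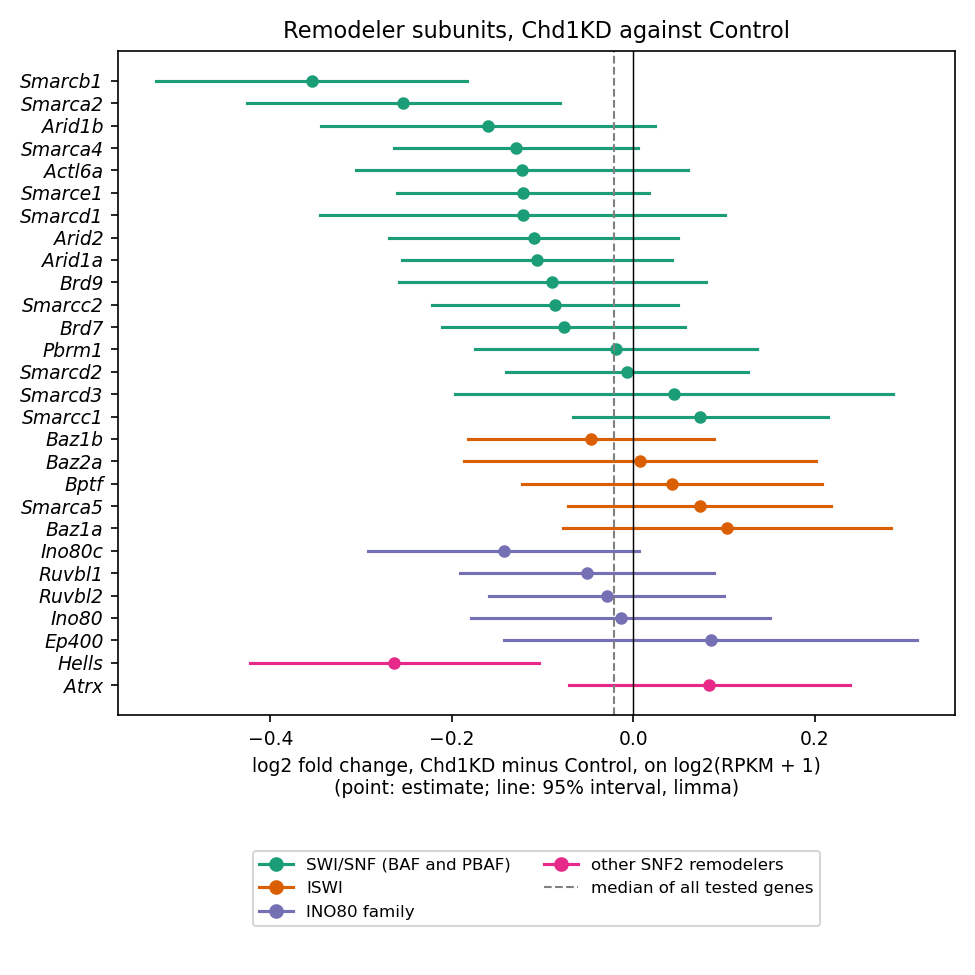
Log2 fold change of each tested remodeler subunit, Chd1KD minus Control, on the log2(RPKM + 1) scale; points are limma estimates, lines are 95% intervals, colours mark families and the dashed line is the median of all tested genes (-0.02). Only the intervals of Smarcb1, Smarca2 and Hells lie wholly below 0, and no interval lies wholly above it.

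The families differed in which way their members leaned, though the difference between families was not tested. Of 16 SWI/SNF subunits, 14 were lower in Chd1KD (median -0.11), 12 with each library at the same summed RPKM and 13 after quantile normalization. Of 5 tested ISWI genes, 1 was lower (median 0.04), under both of those scalings as well, but 3 of 5 were without Control replicate 1 (median -0.01). The INO80 family had 4 of 5 lower (median -0.03), but 2 of 5 at the same summed RPKM, 3 of 5 after quantile normalization and 5 of 5 without Control replicate 1. Among the 7 tested SNF2-type ATPases across families, 4 were lower and 3 higher, and both other scalings gave 3 lower and 4 higher.

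Levels spanned a wide range, and since RPKM is per length they can be compared between genes. Ruvbl2 was highest, at a mean of 94.81 RPKM over the 4 libraries or percentile 92.4 of tested genes. Next came Ruvbl1 at 87.53, Baz1b at 71.33, Smarce1 at 61.26 and Smarca5 at 58.49 RPKM. The lowest tested member was Smarcd3 at 3.96 RPKM, or percentile 19.1, followed by Arid1b at 5.932 and Ino80 at 8.696 RPKM. Such mRNA levels do not give the amounts of protein.

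**Figure D2:**
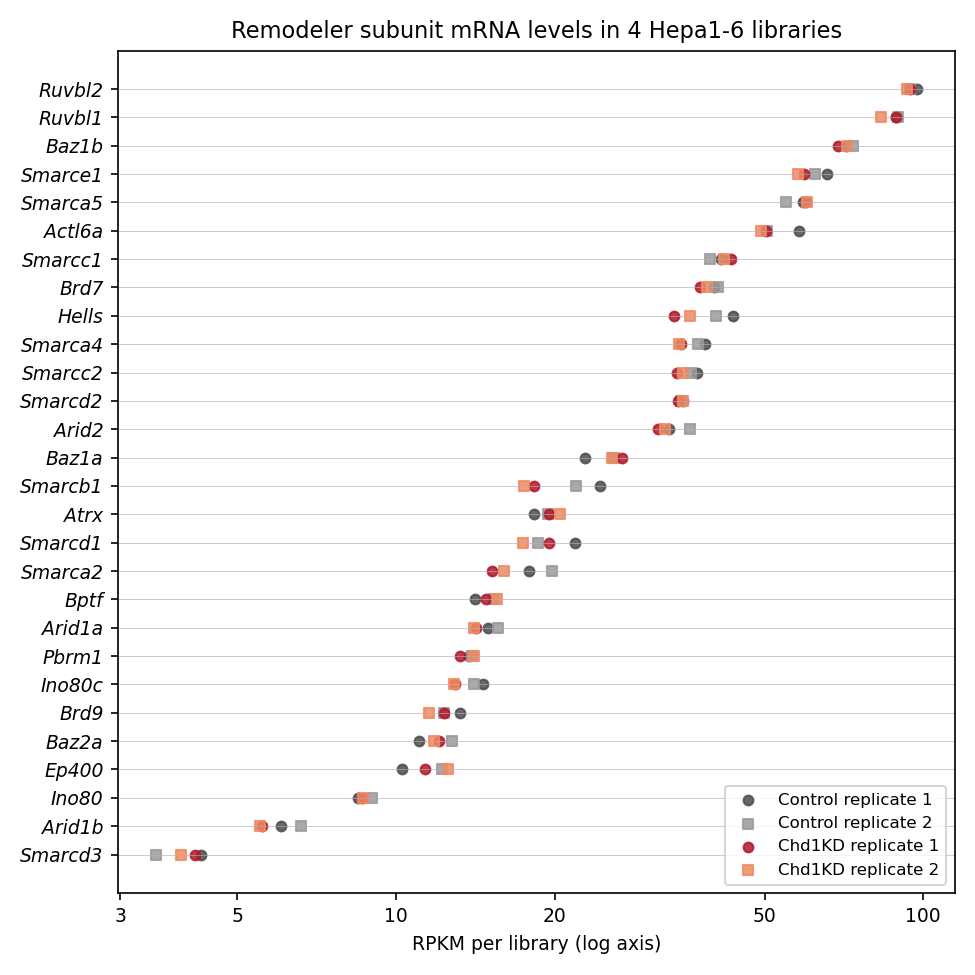
RPKM of each tested remodeler subunit in each library on a log axis, ordered by mean level; circles are replicate 1 and squares replicate 2, greys are Control and reds are Chd1KD. Levels run from Smarcd3 near 4 RPKM to Ruvbl2 near 95 RPKM, and for most genes the 4 libraries lie close together.

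Of the 29 genes with a row, 6 had more than 1 RefSeq transcript in the table: Smarca2, Smarca4, Smarcb1, Smarcc2, Smarcd2 and Ep400. Transcripts of a gene share exons, so their RPKM values are not independent of each other. Fitted by transcript, 3 of 35 member transcripts had an unadjusted limma p under 0.05 (8.57%, against 14.3% of all 11965 tested), and 0 had an adjusted p under 0.05, as did 0% of all tested transcripts. Each transcript was also tested against the other transcripts of its gene, which measures usage. There, 1 of 13 member transcripts had an unadjusted limma p under 0.05 (7.69%, against 5.32% of all 3252), and 0 had an adjusted p under 0.05, again like 0% of all. Both transcript tests were chosen after values had been inspected.

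The SWI/SNF ATPases are Smarca4 (BRG1, chr9:21616106-21704230 in GRCm38.p6, the assembly behind mm10) and Smarca2 (BRM, chr19:26605073-26778321), of which a complex holds only a single copy of either. Smarca2 was at 17.87 and 19.75 RPKM in Control, against 15.21 and 15.99 RPKM in Chd1KD. Both Chd1KD libraries were below both Control libraries, with a ratio of 0.829 and a fold change of -0.25 (95% interval -0.43 to -0.08, limma unadjusted p = 0.0105, adjusted p = 0.151). When each gene's most abundant transcript replaced the sum, its fold change was -0.05 (limma unadjusted p = 0.629, adjusted p = 0.831). Smarca4 was at 38.52 and 37.34 RPKM in the Control libraries and at 34.74 and 34.45 RPKM in the Chd1KD libraries. Its groups did not overlap either, at a ratio of 0.912 and a fold change of -0.13 (95% interval -0.26 to 0.01, limma adjusted p = 0.285). Smarca4 made up 66.9% ± 2.1 (SD, n = 2) of the summed level of both genes in Control and 68.9% ± 0.88 (SD, n = 2) in Chd1KD. These shares overlapped between the groups. The Smarca2 sum includes a short transcript that lacks the ATPase domain, with 49.8% of the gene's RPKM over the 4 libraries. The shares are therefore not shares of ATPase mRNA. The difference of 2.06 percentage points became -0.58 when each gene's most abundant transcript was used.

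Smarca2 has a long and a short transcript, of which the short one had the smaller p. The long form (NM_011416) has 33 exons and 1583 codons. The short form (NM_026003) starts 143351 bases further downstream, has 9 exons, of which 6 are shared, and encodes the last 236 codons of the same frame. The short frame thus keeps the C-terminal end with the bromodomain and lacks the ATPase domain. Its opening 60 coding bases (chr19:26751851-26751910, plus strand, mm10) are shown because they mark where the short frame joins the long one, at codon 1348 of the latter, with the start codon in capitals.
Smarca2 short frame: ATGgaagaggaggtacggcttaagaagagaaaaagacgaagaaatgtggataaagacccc
The short transcript was at 9.88 and 10.1 RPKM in the Control libraries and at 6.891 and 7.411 RPKM in the Chd1KD libraries. The long one was at 7.988 and 9.646 RPKM with the scrambled shRNA and at 8.322 and 8.578 RPKM with the Chd1 shRNA. The short form's groups lay apart at a ratio of 0.716 (fold change -0.43, 95% interval -0.62 to -0.24, limma unadjusted p = 0.00197, adjusted p = 0.211). The long form's groups overlapped at a ratio of 0.958. The short share of Smarca2 RPKM was 55.3% and 51.2% in Control and 45.3% and 46.3% in Chd1KD. This difference in usage was -0.38 on the log2 scale (95% interval -0.88 to 0.11) and did not pass the test (limma adjusted p = 0.876).

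Smarcb1 (SNF5, chr10:75896769-75921614), a core subunit that contacts the nucleosome and is lost in rhabdoid tumours, had the smallest p of all members. It was at 24.38 and 21.94 RPKM with the scrambled shRNA and at 18.24 and 17.51 RPKM with the Chd1 shRNA. The ratio was 0.772 and the fold change -0.35 (95% interval -0.53 to -0.18, limma unadjusted p = 0.00189, adjusted p = 0.0965). The gap between the groups was larger than the spread within either, but the adjusted p missed 0.05. It was 0.0355 without Control replicate 2 (fold change -0.43), and 0.383 when the most abundant transcript of each gene was used in place of the sum (fold change -0.22).

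The Smarcb1 transcripts differ in coding sequence by 27 coding bases, or 9 codons, at the end of exon 2 (chr10:75916773-75916799, minus strand, mm10). They are present in NM_011418 and absent from NM_001161853. The segment is in capitals, with 15 bases of the mRNA on each side, and is shown because Smarcb1 was the member with the smallest p.
Smarcb1 segment: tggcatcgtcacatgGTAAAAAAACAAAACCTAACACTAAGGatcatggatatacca
The form with it was at 10.06 and 12.8 RPKM with the scrambled shRNA and at 9.425 and 9.845 RPKM with the Chd1 shRNA. The form without it was at 14.33 and 9.135 RPKM in Control, against 8.815 and 7.665 RPKM in Chd1KD. Both forms were lower in Chd1KD, at ratios of 0.843 and 0.702, but Control 1 and Control 2 split the gene very differently between them. The form with the segment was the most abundant transcript used above, but held only 51.3% of the gene's RPKM over the 4 libraries. Usage of the form with the segment differed by 0.22 (95% interval -0.68 to 1.12, limma adjusted p = 0.957).

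Smarce1, the HMG-box subunit, was at 65.54 and 62.26 RPKM in Control, against 59.51 and 57.75 RPKM in Chd1KD. The groups did not overlap, with a ratio of 0.918 (limma adjusted p = 0.318). Actl6a, the actin-related subunit that SWI/SNF shares with INO80-family complexes, was at 58.1 and 50.54 RPKM in the Control libraries and at 50.24 and 49.13 RPKM in the Chd1KD libraries. Its Control libraries differed by more than the distance from the lower of them to either Chd1KD library.

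Smarcc1 and Smarcc2, the paired scaffold subunits, lay on opposite sides of 0. Smarcc1 was at 41.4 and 39.4 RPKM with the scrambled shRNA and at 43.2 and 41.93 RPKM with the Chd1 shRNA. Smarcc2 was at 37.25 and 36.25 RPKM in Control, against 34.12 and 34.99 RPKM in Chd1KD. Neither passed the test (limma adjusted p = 0.535 for Smarcc1 and 0.45 for Smarcc2), yet groups did not overlap for either. The Smarcc1 share of their sum was 52.6% and 52.1% in Control against 55.9% and 54.5% in Chd1KD, also without overlap. The difference of 2.83 percentage points became 7.09 when each gene's most abundant transcript was used. With 2 libraries a group an exact permutation test cannot go below p = 0.333, so shares are given as a description.

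The main Smarcc2 transcripts differ in coding sequence by a segment of exon 27 of 342 coding bases, or 114 codons (chr10:128488018-128488359, plus strand, mm10). The form with it is NM_001114097 and the main form without it NM_198160. The start of the segment is shown in capitals after the 15 bases of mRNA before it, since it is the coding difference between the forms. They also differ outside the coding sequence. The form with the segment has 4032 bases and ends at 128489356, and the form without it has 4533 bases and ends at 128490172. Whether the values follow the segment or these ends was not tested.
Smarcc2 segment, first 60 bases: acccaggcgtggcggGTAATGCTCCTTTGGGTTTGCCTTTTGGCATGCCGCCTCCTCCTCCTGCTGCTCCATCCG
The form with the segment was at 24.3 and 25.15 RPKM in Control, against 21.03 and 17.15 RPKM in Chd1KD. The form without it was at 11.56 and 10.39 RPKM in the Control libraries and at 12.42 and 16.8 RPKM in the Chd1KD libraries. Groups did not overlap for either, and the forms lay in opposite directions, at ratios of 0.772 and 1.33. The usage of the form without the segment differed by 0.73 on the log2 scale (95% interval 0.02 to 1.44, limma unadjusted p = 0.0465, adjusted p = 0.876). Its share was 31.0% and 28.7% in Control and 36.4% and 48.0% in Chd1KD, with the highest value in Chd1KD replicate 2. A further form, NM_001114096, stayed at or below 1.397 RPKM.

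**Figure D3:**
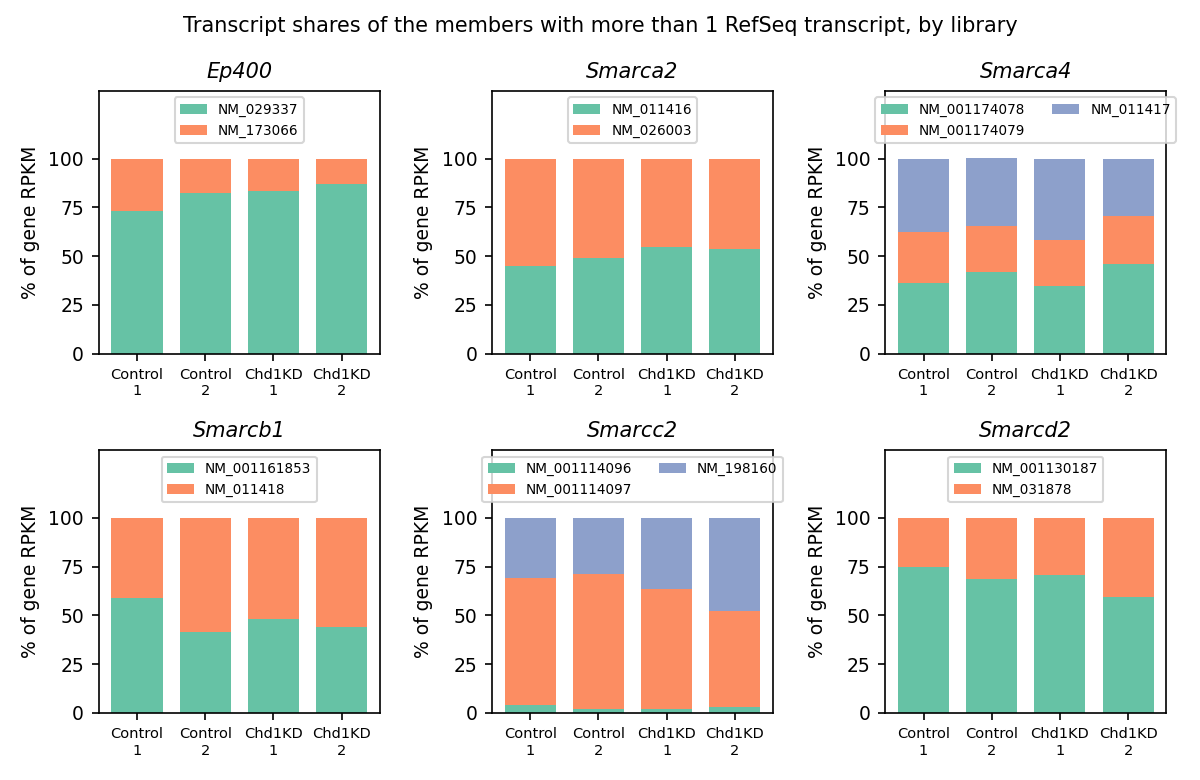
Share of each RefSeq transcript in the summed RPKM of its gene (%), by library, for the 6 remodeler subunits with more than 1 transcript row. The short Smarca2 form (NM_026003) lies between 51.2% and 55.3% in Control and between 45.3% and 46.3% in Chd1KD, while Smarca4, Smarcb1 and Smarcd2 shares overlap between the groups.

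The other genes with several forms showed wide splits as well. For Ep400, NM_173066 was at 2.747 and 2.17 RPKM in the Control libraries and at 1.905 and 1.628 RPKM in the Chd1KD libraries, at a ratio of 0.719. Its main form NM_029337 had overlapping groups at a ratio of 1.16, though its share, 73.2% and 82.2% in Control and 83.2% and 87.0% in Chd1KD, did not overlap. For Smarcd2, NM_001130187 had a ratio of 0.9 and NM_031878 a ratio of 1.24, with overlapping groups in both. The Smarca4 forms NM_001174078, NM_001174079 and NM_011417 had ratios of 0.948, 0.875 and 0.899, of which NM_001174079 alone had groups that did not overlap. None of these transcripts had an unadjusted limma p under 0.05.

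The Smarcd genes encode alternative adaptors that link the complex to transcription factors. Smarcd2 dominated them, at 34.97 and 34.7 RPKM in the Control libraries and at 34.33 and 34.98 RPKM in the Chd1KD libraries. Smarcd1 was at 21.84 and 18.6 RPKM with the scrambled shRNA and at 19.51 and 17.44 RPKM with the Chd1 shRNA. Smarcd3, the form known from heart and muscle, was at 4.273 and 3.507 RPKM in Control, against 4.149 and 3.91 RPKM in Chd1KD. Groups overlapped for all 3 genes, and Smarcd2 held 59.2% ± 2.7 (SD, n = 2) of their sum in Control and 60.7% ± 2.1 (SD, n = 2) in Chd1KD.

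Other subunits decide which class of complex is formed. Arid1a and Arid1b define the canonical BAF form, Arid2, Pbrm1 and Brd7 the PBAF form, and Brd9 the non-canonical form. Arid1a was at 14.94 and 15.61 RPKM in the Control libraries and at 14.2 and 14.03 RPKM in the Chd1KD libraries. Arid1b was at 6.04 and 6.597 RPKM with the scrambled shRNA and at 5.575 and 5.517 RPKM with the Chd1 shRNA. Arid2 was at 32.96 and 36.11 RPKM in Control, against 31.38 and 32.42 RPKM in Chd1KD. All 3 ARID genes had both Chd1KD libraries below both Control libraries, at ratios of 0.924, 0.878 and 0.924, and none passed the test (limma adjusted p = 0.399, 0.32 and 0.412). Brd7 was at 40.14 and 40.71 RPKM in the Control libraries and at 37.74 and 38.84 RPKM in the Chd1KD libraries, again without overlap. Pbrm1 was at 13.73 and 13.92 RPKM with the scrambled shRNA and at 13.21 and 14.06 RPKM with the Chd1 shRNA. Brd9, whose bromodomain is a drug target, was at 13.22 and 12.32 RPKM in Control, against 12.34 and 11.55 RPKM in Chd1KD. The Pbrm1 and Brd9 groups overlapped. Their 95% intervals, -0.17 to 0.14 and -0.26 to 0.08, leave room for small differences in either direction. Arid1a held 70.8% ± 0.66 (SD, n = 2) of the Arid1a and Arid1b sum in Control and 71.8% ± 0.02 (SD, n = 2) in Chd1KD. The Brd9 share of Brd9 and Brd7 was 24.0% ± 1.1 in Control and 23.8% ± 1.2 in Chd1KD (SD, n = 2 each).

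**Figure D4:**
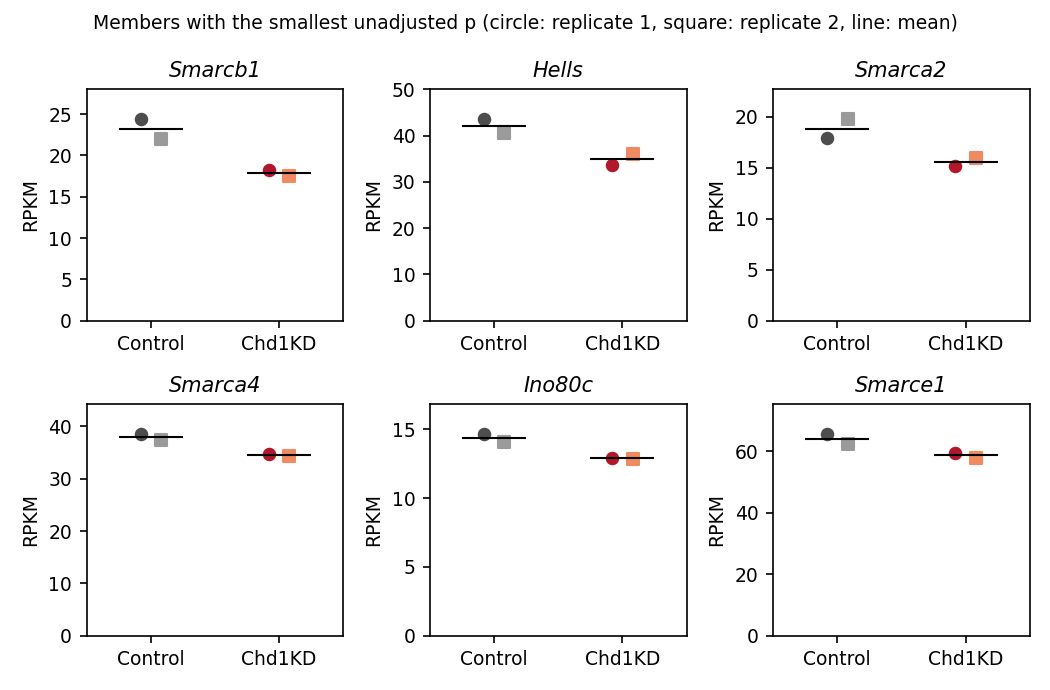
RPKM in each library for the 6 remodeler subunits with the smallest unadjusted p (circle, replicate 1; square, replicate 2; line, mean of the group; each axis starts at 0). In all 6 genes both Chd1KD points lie below both Control points, by the most in Smarcb1 at a ratio of 0.772.

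The ISWI motor in these cells was Smarca5 (SNF2H). It was at 59.12 and 54.89 RPKM in the Control libraries and at 59.9 and 60.07 RPKM in the Chd1KD libraries. The Chd1KD libraries were the higher ones, by a ratio of 1.05 and a fold change of 0.07 (95% interval -0.07 to 0.22, limma adjusted p = 0.553). Its paralog Smarca1 (SNF2L), best known from brain, was listed at 0 in every library, which in a table without counts need not mean that no transcript was present.

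ISWI motors work with large partner proteins that set their target sites. Baz1b (WSTF, of the WICH complex) was the most abundant of them, at 71.29 and 73.71 RPKM with the scrambled shRNA and at 68.79 and 71.51 RPKM with the Chd1 shRNA. Baz1a (ACF1) was at 22.84 and 25.91 RPKM in Control, against 26.79 and 25.63 RPKM in Chd1KD. Baz2a (TIP5, of the nucleolar remodeling complex that silences ribosomal genes) was at 11.04 and 12.75 RPKM in the Control libraries and at 12.05 and 11.82 RPKM in the Chd1KD libraries. Bptf, the H3K4me3-binding subunit of NURF, was at 14.13 and 15.34 RPKM with the scrambled shRNA and at 14.84 and 15.54 RPKM with the Chd1 shRNA. Groups overlapped for all 4 partners, with ratios of 0.968, 1.08, 1.0 and 1.03. The 95% intervals reached from -0.19 at the low end, for Baz2a, to 0.28 at the high end, for Baz1a. As a share of the 4 partners, Baz1b was at 59.8% and 57.7% in Control and 56.2% and 57.4% in Chd1KD, without overlap but with a gap smaller than the spread within either group.

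In the INO80 family, Ino80 is the ATPase of the INO80 complex and Ep400 that of the p400/TIP60 complex, which pairs remodeling with histone acetylation. Ino80 was at 8.47 and 9.018 RPKM in Control, against 8.624 and 8.671 RPKM in Chd1KD. Ep400 was at 10.27 and 12.22 RPKM in the Control libraries and at 11.37 and 12.55 RPKM in the Chd1KD libraries. Both overlapped between groups, with 95% intervals of -0.18 to 0.15 for Ino80 and -0.14 to 0.31 for Ep400. Ino80 made up 43.8% ± 1.9 (SD, n = 2) of their sum in Control and 42.0% ± 1.6 (SD, n = 2) in Chd1KD, a difference of -1.84 percentage points, or -4.17 from each gene's most abundant transcript.

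Ruvbl1 and Ruvbl2 are AAA+ ATPases that assemble into a mixed ring shared by all INO80-family complexes. Ruvbl1 was at 88.64 and 89.5 RPKM with the scrambled shRNA and at 88.75 and 83.23 RPKM with the Chd1 shRNA. Ruvbl2 was at 97.17 and 94.4 RPKM in Control, against 94.41 and 93.23 RPKM in Chd1KD. The ring partners were close to balance, with Ruvbl1 at 48.2% ± 0.68 of their sum in Control and 47.8% ± 0.91 in Chd1KD (SD, n = 2 each). Ino80c, a small subunit of the INO80 complex, was at 14.64 and 14.06 RPKM in the Control libraries and at 12.93 and 12.87 RPKM in the Chd1KD libraries. Its groups did not overlap, at a ratio of 0.899 and a fold change of -0.14 (95% interval -0.29 to 0.01, limma adjusted p = 0.286).

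Hells (LSH, chr19:38930262-38970470), an SNF2-type remodeler needed for DNA methylation of repeats, was at 43.52 and 40.53 RPKM with the scrambled shRNA and at 33.62 and 36.06 RPKM with the Chd1 shRNA. The groups did not overlap, at a ratio of 0.829 and a fold change of -0.26 (95% interval -0.42 to -0.10, limma unadjusted p = 0.00605, adjusted p = 0.13). Atrx, which places the histone variant H3.3 at repeats together with Daxx, was at 18.23 and 19.41 RPKM in Control, against 19.54 and 20.47 RPKM in Chd1KD. Here the Chd1KD libraries were the higher ones, at a ratio of 1.06 and a fold change of 0.08 (95% interval -0.07 to 0.24, limma adjusted p = 0.523).

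RefSeq promoter windows of 300 bases were found for 26 of the 30 genes, giving 28 windows. Their median GC content was 66.8% and they held a median of 32 CpG dinucleotides. For the windows of all tested genes the medians were 61.3% and 21, and for all 32851 windows 52.7% and 7. The GC box core GGGCGG, searched on both strands, was present in 27 of 28 member windows (96.4%), in 64.9% of windows of tested genes and in 35.7% of all. The TATA box TATAAA was in 7.1% of member windows, in 6.6% of those of tested genes and in 13.6% of all. The CCAAT box, CCAAT, was in 21.4% of member windows against 37.9% of those of tested genes and 37.4% of all. The NRF1 core GCATGCGC was in 14.3% of member windows, those of Smarca4, Smarca5, Smarcb1 and Smarcc1, against 5.6% of those of tested genes and 2.7% of all. The ETS core CCGGAAG was also in 14.3%, against 19.6% and 8.9%. Of these genes with an NRF1 match, Smarca4 and Smarcb1 were lower in Chd1KD and Smarca5 and Smarcc1 higher. A match describes the letters in a window, and the shares were compared without a test.

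Of 63 entries in lists of further subunits, partners, SNF2-type ATPases and histone variants, 59 genes outside the members were tested and 0 passed the limma test with adjustment over all genes. Fold changes were below 0 in 46 and above 0 in 13, with a median of -0.07 (78.0% below 0), against 56.5% of all tested genes below 0 and a median of -0.02. An unadjusted p under 0.05 was found for 11 of the 59, all of them lower, beside 18.5% of all tested genes at that level in either direction and 11.3% at it and lower. With each library at the same summed RPKM, 41 were below 0 (69.5%, against 47.7% of all tested genes). The smallest adjusted p was 0.102, for Rad54l, the recombination ATPase, at 9.136 and 8.549 RPKM with the scrambled shRNA and at 6.459 and 6.893 RPKM with the Chd1 shRNA. Ttf2, an ATPase that releases RNA polymerase II from DNA, had a ratio of 0.794 (limma adjusted p = 0.104).

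Among the 10 further tested SWI/SNF subunits, 2 had an unadjusted limma p under 0.05, the accessory subunits Bcl7b at a ratio of 0.874 and Bcl7c at 0.863. Among 7 further ISWI partners there were 0, and the smallest p values belonged to Chrac1, a histone-fold subunit, at a ratio of 0.868 and to Baz2b at 0.946. Among 10 further INO80 subunits there was 1, Mcrs1, at 52.58 and 45.43 RPKM in Control, against 40.84 and 39.73 RPKM in Chd1KD. Nfrkb, of the same complex, followed at a ratio of 0.893. Of 15 further SRCAP and p400/TIP60 subunits there were 3, with Actr6, the actin-related subunit of SRCAP, at a ratio of 0.705 and Meaf6 at 0.851 in front. Of the 7 histone variant genes and chaperones there were 2, the H2A.Z gene H2az2 at a ratio of 0.854 and the H3.3 gene H3f3a at 0.902. For each variant the other gene had the higher level. H2az1 had a Control mean of 523.5 RPKM, against 20.17 RPKM for H2az2. Its groups overlapped at a ratio of 0.95 (limma adjusted p = 0.631). H3f3b had a Control mean of 267.3 RPKM, against 228.6 RPKM for H3f3a. It was higher in Chd1KD without overlap, at a ratio of 1.11 (limma adjusted p = 0.289). Of the 10 other SNF2-type ATPases, the list that holds Rad54l and Ttf2, 3 had an unadjusted limma p under 0.05. All genes under that level in these lists were lower in Chd1KD. Each of these small counts stands beside the 18.5% of all tested genes at the same level, and the 11.3% at it and lower. In the CHD family itself, 8 genes were tested and 1 passed, Chd1. An unadjusted limma p under 0.05 was found for 5 of the 8, beside 18.5% of all tested genes. Of these, 3 were lower in Chd1KD, Chd1 among them, and 2 were higher. Groups did not overlap for 7 of the 8, beside 51.8% of all tested genes. The median absolute fold change of the 8, Chd1 included, was 0.2889, beside 0.0923 over all tested genes.

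The tables do not say whether counting used strand. Of the 28 tested members, 14 overlap another annotated gene and 5 a protein-coding one (Smarcd3, Pbrm1, Brd7, Ruvbl1 and Ruvbl2). Overlap was taken over whole gene spans, introns included and on either strand. Whether exons overlap was not checked, so it is not known whether reads from such neighbours entered the member values. None of the 3 members with an unadjusted p under 0.05 overlaps a protein-coding gene, but Smarca2 overlaps 3 other annotated genes.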

How the data were processed

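RNA-seq of 2 Control and 2 Chd1KD Hepa1-6 libraries was used as deposited. The authors deposited RPKM values for 30582 RefSeq transcripts, per the file headers; the 4 single-library tables equalled their columns. TopHat 1.4.1, Cufflinks 1.3.0 and mm10 are named in the submitters' processing notes. For the annotation release, strand setting, filters and read depth: not given in the sources used here. Transcripts were named through RefSeq for GRCm38.p6, the assembly behind mm10 (30003 rows), and GENCODE M21 (180 further rows). The 399 unnamed rows held 0.304% of summed RPKM. They were added to no named gene, but were kept under their transcript names and counted as genes, also in the tests where their level sufficed. RPKM was summed per gene, log2(RPKM + 1) was taken, and genes averaging 1 RPKM or more entered limma 3.58.1 (R 4.3.3, lmFit, eBayes with a variance trend, Benjamini-Hochberg over 10209 genes, threshold 0.05, 95% intervals). The procedure was tested on simulated data. No other scaling between libraries was applied in the main fit. Sequences came from GENCODE M21 transcripts, linked to RefSeq, and RefSeq promoters of GRCm38.p6. Members, lists and tests were chosen with earlier results of these data known. All 30 members are named. Of each other remodeler list, genes that passed or else the 2 of smallest p are named, and H2az1 and H3f3b are named beside their paralogs. Alternatives changed the pseudocount, filter, scaling, variance model, libraries, transcript summing, threshold and replicate block.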

Additional observations from a re-analysis of the deposited data

How the results depend on the processing

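The number of genes called among all tested was 47. It was 0 with no filter, 71 at a mean of at least 5 RPKM, 95 at the same summed RPKM, 6 with no variance trend, 92 with a robust one, 12 with the most abundant transcript, 205 at an adjusted p under 0.10, 0 by transcript, and 49 to 236 with 1 library left out. Replicate numbers gave libraries no more than a shared number (correlation of deviations 0.22 across genes). With the replicate block, 325 genes and 1 member, Smarcb1 (adjusted p = 0.0365), were called, and 6 members had an unadjusted p under 0.05. Members called were also 1 at an adjusted p under 0.10 and 0 to 1 with 1 library left out: 1, Smarcb1, without Control replicate 2. That library left out also gave the only call among the other remodeler genes, Mcrs1 (0 to 1). Members with an unadjusted p under 0.05 were 3, 5 with no filter, and 1 to 8 with 1 library left out: 1, Smarcb1, without Chd1KD replicate 1 and 8 without Control replicate 2. With the most abundant transcript there were 2, Hells and Smarcc2, so Smarca2 and Smarcb1 dropped out and Smarcc2 came in. The median fold change of all tested members was -0.077 at a mean of at least 5 RPKM and -0.033 at the same summed RPKM. It was -0.047 after quantile normalization and -0.063 to -0.053 with 1 library left out. Chd1 kept a fold change of -0.96 with no filter, but its adjusted p was 0.25. Signs turned at the same summed RPKM for Smarcd2 (0.023), Pbrm1 (0.0099), Ino80 (0.014) and Ruvbl2 (0.0014), and after quantile normalization for Smarcd2 (0.0094) and Ino80 (0.0102). With 1 library left out, fold changes ran from -0.0203 to 0.0062 for Smarcd2, -0.069 to 0.16 for Smarcd3, -0.062 to 0.023 for Pbrm1, -0.088 to 0.10 for Baz2a, -0.013 to 0.098 for Bptf, -0.054 to 0.027 for Ino80 and -0.0299 to 0.20 for Ep400. The other 20 of 28 members kept their sign in these alternatives. The cause of these changes was not tested. Depth is unknown, so no counting error could be given.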
